A study of Mus musculus with 107 samples.

Results

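Mouse ears that had received octylhomovanillamide (OHV) before sulfur mustard were compared with vehicle ears, to describe which parts of the injury response were still measurable 24 h later. The 5 ears of this group were labelled as given 0.6 mg OHV, followed after 15 min by sulfur mustard at 0.08 mg, and were the right ears of animals 27, 28, 29, 30 and 33. They were chosen by that label, and are 5 of the 64 ears of the whole series. The vehicle ears were 21 left ears that received methylene chloride, the mustard's solvent, and neither OHV nor ethanol. The comparison therefore covers mustard, OHV, the drug's ethanol and the side of the ear together, and their contributions cannot be told apart in it. All 5 left ears of the OHV animals were among the 21, and the right ear of each vehicle animal belonged to a mustard-treated group wherever it was hybridized. A further 5 right ears had 0.08 mg mustard alone. On array A, 5 ears given OHV alone and 3 ears given ethanol were also measured. The protocol gives the OHV dose as 0.585 mg where the treatment label gives 0.6 mg, and strain, sex and age are not given in the sources used here. Each sample was a skin biopsy of the ear, in which skeletal muscle and cartilage markers were also measured, so a lower signal can reflect fewer cells of a type or less RNA per cell, and the 2 cannot be told apart.

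Sulfur mustard is a bifunctional alkylating agent that crosslinks DNA and blisters skin. Damaged DNA activates the transcription factor p53, whose targets halt the cell cycle, repair DNA or promote cell death. Injured epidermis separately enters a wound program in which keratinocytes switch to keratins 6, 16 and 17, make small proline-rich and late cornified envelope proteins, and release alarmins and neutrophil chemokines. OHV is a vanilloid related to capsaicin, the agonist of the sensory channel Trpv1.

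Signals are given as MAS5 probe set signals after scaling each array to a trimmed mean of 500, and log2 differences are on the log2(scaled signal + 16) scale, which understates changes of dim genes. Tests are limma's moderated test across all probe sets kept on an array, and a gene is said to have risen or fallen when its Benjamini-Hochberg adjusted p was under 0.05. On array A, 442 of 15435 probe sets passed (2.86%), of which 293 rose (1.9%) and 149 fell (0.965%) in OHV-plus-mustard ears relative to vehicle. On array B, 93 of 17294 passed (0.538%), with 56 higher (0.324%) and 37 lower (0.214%). At an unadjusted p under 0.05, 2347 probe sets passed on array A and 1469 on array B (limma). Represented by 1 probe set per gene, 375 of 14764 genes were called (2.54%), 248 upward (1.68%) and 127 downward (0.86%). In 97 genes (0.657%) the 5 OHV-plus-mustard ears did not overlap the 21 vehicle ears. With the deposited signals left unscaled, the split was 126 higher and 4 lower on array A and 35 higher and 3 lower on array B. Of the falls named below, Fhit, Igfbp3 and Rbms3 were still called on unscaled signals, and the others were not. A model with animal as a fixed replicate block called 168 probe sets on array A and 34 on array B, and the 5 same-animal pairs alone called 129 and 13. Where a named gene lost its call under either model, its adjusted p or the count of its list is given as that of the animal block or of the 5 pairs. Without the ear of animal 29 the counts were 159 and 37, and without the ear of animal 33 they were 624 and 144.

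Motifs for AP-1 and p53, transcription factors of wounding and of DNA damage, were searched in promoter windows of the risen wound and p53 target genes. The 4 windows below are shown because they hold a match. They are not those of the largest differences, and Krt6b, Defb3 and Ccng1 are not among them. The windows run from 250 bases before to 50 bases after the RefSeq transcript start on GRCm38.p6, and capitals mark the match. The first 3 hold the AP-1 motif TGANTCA, and the last holds a match to a p53 response element pattern, 2 half-sites with 0 to 13 bases between.
Sprr1b, chr3:92438730-92439029, minus strand: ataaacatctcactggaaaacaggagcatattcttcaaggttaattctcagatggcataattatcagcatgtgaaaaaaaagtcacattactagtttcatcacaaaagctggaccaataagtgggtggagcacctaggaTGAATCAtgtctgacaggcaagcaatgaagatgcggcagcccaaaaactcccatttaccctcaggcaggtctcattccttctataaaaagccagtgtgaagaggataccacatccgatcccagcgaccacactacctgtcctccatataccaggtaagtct
Sprr2f, chr3:92364937-92365236, plus strand: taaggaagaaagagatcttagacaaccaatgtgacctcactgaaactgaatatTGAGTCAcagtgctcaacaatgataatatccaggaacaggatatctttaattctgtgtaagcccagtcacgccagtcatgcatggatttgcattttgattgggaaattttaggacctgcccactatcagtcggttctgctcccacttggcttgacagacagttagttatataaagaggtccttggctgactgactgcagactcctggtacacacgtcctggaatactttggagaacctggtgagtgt
Sprr2h, chr3:92385435-92385734, plus strand: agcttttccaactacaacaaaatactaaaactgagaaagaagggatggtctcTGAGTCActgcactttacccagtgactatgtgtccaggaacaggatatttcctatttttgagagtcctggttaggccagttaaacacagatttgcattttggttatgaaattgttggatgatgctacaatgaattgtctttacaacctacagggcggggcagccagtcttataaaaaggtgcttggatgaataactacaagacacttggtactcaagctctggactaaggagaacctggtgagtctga
Cdkn1a, chr17:29090729-29091028, plus strand: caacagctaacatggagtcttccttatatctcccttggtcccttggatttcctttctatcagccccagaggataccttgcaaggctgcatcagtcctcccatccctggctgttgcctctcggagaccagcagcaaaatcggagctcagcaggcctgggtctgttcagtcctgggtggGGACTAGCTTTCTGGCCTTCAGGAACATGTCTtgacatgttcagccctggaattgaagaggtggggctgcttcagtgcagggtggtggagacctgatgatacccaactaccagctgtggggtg
Of the wound keratin, envelope, alarmin and stefin genes that rose, 18 had a window, and 7 of them (38.9%) held TGANTCA on either strand, against 8.97% of 27025 genes with a window. Those 7 were Sprr1a, Sprr1b, Sprr2d, Sprr2f, Sprr2h, Sprr2i and Stfa3, and the Sprr2 members are close copies of each other. The p53 element was found in 1 of 11 risen p53 target genes with a window, Cdkn1a, against 0.074% of all genes with a window. These matches describe letters in a window, and binding was not measured.

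The wound keratins were among the most raised transcripts of OHV-plus-mustard ears, and 3 of the 4 rose, with a median log2 difference of 2.78 over the list against 0.01 over all genes. Krt6b, a keratin of activated epidermis, measured 9170, 2926, 12722, 6513 and 2628 in the OHV-plus-mustard ears of animals 27, 28, 29, 30 and 33. It measured 23336, 21176, 24204, 6089 and 26875 in the 5 mustard-alone ears, and ranged from 19 to 1525 with a median of 222 in vehicle ears. No OHV-plus-mustard ear overlapped the vehicle ears, and the lowest mustard-alone ear lay among the OHV-plus-mustard ears. The log2 difference from vehicle was 4.76 ± 0.61 (SE, limma adjusted p = 6.91e-07). Within animals, the OHV-plus-mustard ear exceeded its own vehicle ear 34.1-fold, 154-fold, 67.3-fold, 62.6-fold and 5.89-fold, in the same order.

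Krt16, the partner keratin of the Krt6 proteins, measured 6992, 1376, 11200, 3958 and 2030 in the OHV-plus-mustard ears, against a vehicle range of 119 to 983 with a median of 250. Its log2 difference was 3.72 ± 0.47 (SE, limma adjusted p = 5.09e-07), and the groups again did not overlap. Krt6a rose by 1.84 on the log2 scale (adjusted p = 0.00012, limma), with the lowest OHV-plus-mustard ear at 2198 inside the vehicle range of 859 to 3135. Krt17, the fourth member, did not pass, at 0.26 (95% interval -0.14 to 0.66, adjusted p = 0.581, limma). It was 1835, 1473, 3451, 1864 and 1881 in the OHV-plus-mustard ears, 2489 to 8997 in mustard-alone ears and 1244 to 2105 in vehicle ears. Only the ear of animal 29 lay above the vehicle range for Krt17. Krt6a and Krt6b are close paralogs whose probes may share signal.

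**Figure D1:**
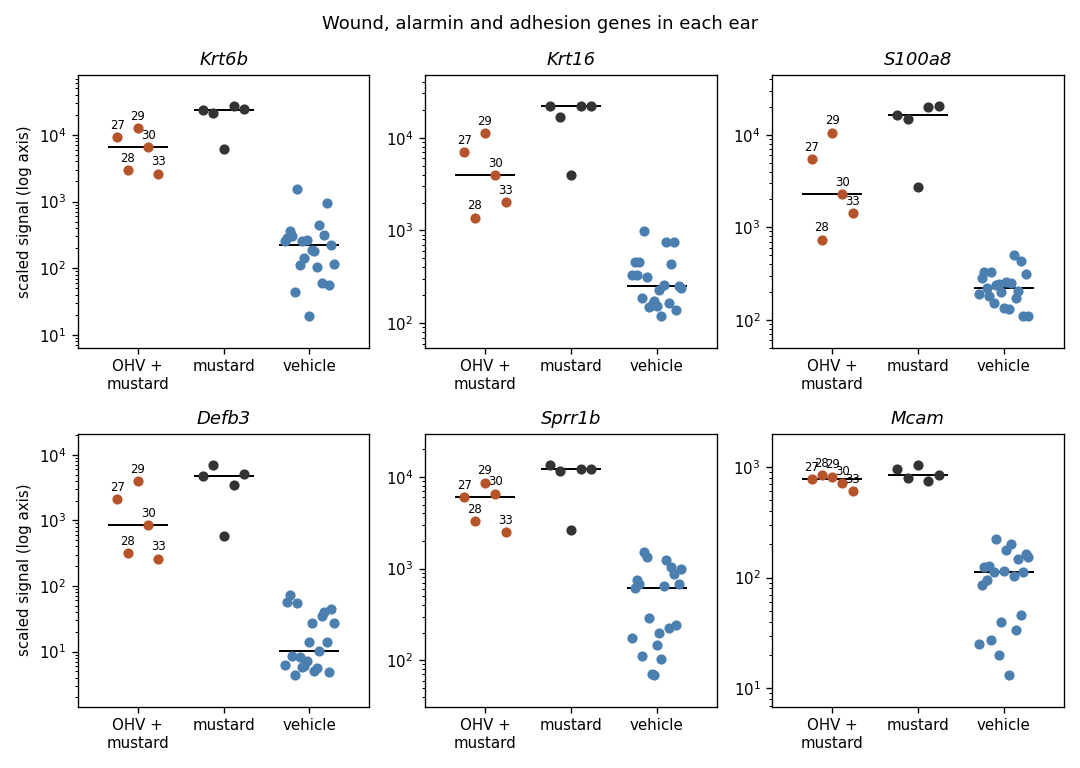
Scaled signal (log axis) of 6 genes in OHV-plus-mustard ears (numbered by animal), mustard-alone ears and vehicle ears, with a line at each median. Krt6b, Krt16, S100a8, Defb3, Sprr1b and Mcam lie above all 21 vehicle ears in each of the 5 OHV-plus-mustard ears, and Mcam lies at 599 to 843 in OHV-plus-mustard ears, against 751 to 1036 in mustard-alone ears.

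Stress-induced cornified envelope genes rose together: 11 of 14 measured members rose, none fell, and the median log2 difference was 2.14. Sprr1b, a small proline-rich crosslinking substrate, was 6063, 3294, 8656, 6578 and 2495 in the OHV-plus-mustard ears and 68.9 to 1521 in vehicle ears (median 618). It rose by 3.61 ± 0.53 (SE, log2, limma adjusted p = 1.22e-05). The late cornified envelope genes Lce3a, Lce3c, Lce3f and Lce3b rose by 4.11, 3.43, 2.79 and 2.03 on the log2 scale, and Sprr2f and Sprr2h by 2.91 and 2.80. Lce3a was 2275, 382, 4276, 1016 and 274 in the OHV-plus-mustard ears, all above the highest vehicle ear at 147. The Lce3 and Sprr2 families are near-identical copies, so single members are uncertain. Without the ear of animal 29, 7 of the 14 passed, the median was 1.68, and Lce3f no longer passed (2.30, adjusted p = 0.0558, limma). The 5 same-animal pairs alone left 5 members called, with a median of 2.07, and among those lost were Sprr2f (adjusted p = 0.0795, limma) and Lce3b (adjusted p = 0.0588). By contrast, of 33 measured genes of normal epidermal differentiation 1 rose, Rptn (repetin, 1.99, limma adjusted p = 2.15e-05), and the list's median was -0.01. Over all genes 1.68% rose.

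Among antimicrobial and alarmin genes, 5 of 9 rose and 1 fell, with a median of 1.97. Defb3, a beta-defensin, had the largest log2 difference of the genes called on array A, 4.80 ± 0.59 (SE, limma adjusted p = 3.43e-07). Its signal was 2093, 319, 3996, 853 and 261 in the OHV-plus-mustard ears and 4.38 to 73.5 in vehicle ears. The calprotectin subunits S100a8 and S100a9 rose by 3.52 and 3.23, and Lcn2, the siderophore-binding protein lipocalin 2, by 2.05. S100a8 was 5451, 731, 10536, 2275 and 1413 in the OHV-plus-mustard ears, all above the vehicle maximum of 496. Without the ear of animal 29, 4 of the 9 rose and the median was 1.53. On array B the stefin Stfa2l1, a cysteine protease inhibitor, rose by 4.60 ± 0.59 (SE, limma adjusted p = 4.84e-06), and Stfa3 on array A rose by 2.17. They were the 2 members called of 12 measured stefins and clade B serpins, beside 1.68% of all genes that rose.

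The 5 OHV-plus-mustard ears differed widely for these genes. Of the 248 genes that rose, the ear of animal 29 was the highest of the 5 in 177 and the ear of animal 33 the lowest in 158. Of the 127 that fell, animal 29 was lowest in 60 and animal 33 highest in 75. The mean log2 level of the 4 wound keratins was 12.49, 10.90, 13.12, 12.00 and 11.29 in animals 27, 28, 29, 30 and 33, against 12.17 to 14.22 in mustard-alone ears and 8.19 to 10.75 in vehicle ears. The trimmed mean of the deposited array A signals, a measure of array brightness, was 179, 194, 177, 213 and 121 in the same order, lowest in animal 33. The mean log2 level of the skeletal muscle markers was 12.17, 11.09, 11.26, 11.39 and 12.72, highest in animal 33, against 10.06 to 12.63 in vehicle ears. The part of either measure in the differences between ears was not tested.

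Several called genes of other kinds accompanied the wound program. Mcam, a cell adhesion molecule of the immunoglobulin family, was 774, 843, 814, 716 and 599 in the OHV-plus-mustard ears, 751 to 1036 in mustard-alone ears and 13.2 to 222 in vehicle ears. It rose by 2.93 ± 0.33 (SE, log2, limma adjusted p = 3.56e-08), and it kept a similar level in every OHV-plus-mustard ear. Its difference from mustard alone was -0.22 (95% interval -1.06 to 0.62). Cpt1c, a carnitine palmitoyltransferase of the neuronal type, was 1576, 1689, 1779, 1063 and 975 on array B against 41.5 to 604 in vehicle ears. It rose by 2.60 (limma adjusted p = 3.48e-05), and its difference from mustard alone was -0.57 (95% interval -1.54 to 0.39). Epgn, an EGF receptor ligand, rose by 2.85 (limma adjusted p = 5.81e-05), with 299 to 3729 in OHV-plus-mustard ears and 47.6 to 171 in vehicle ears, and did not pass in the 5 pairs (2.67, adjusted p = 0.0509). Of 10 measured EGF family ligands and receptors, Epgn was the 1 that rose and Btc, betacellulin, the 1 that fell (-0.70). The call of Btc was lost without animal 29 (-0.61, adjusted p = 0.0819, limma). Over all genes 1.68% rose and 0.86% fell. The kallikreins Klk12 and Klk13, skin serine proteases, rose by 2.02 and 1.26. Without the ear of animal 29 these were 1.57 (adjusted p = 0.332, limma) and 0.96 (adjusted p = 0.0532), and the call of Klk12 was also lost without animal 27 or 30 (adjusted p = 0.107 and 0.0667). With the animal block the adjusted p was 0.364 for Klk12 and 0.0658 for Klk13 (limma), and in the 5 pairs 0.234 and 0.204.

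Targets of p53 rose in 14 of 23 measured genes and fell in none, with a median log2 difference of 0.85. In 10 of the 23 the OHV-plus-mustard and vehicle ears did not overlap. Over all genes, 1.68% rose and 0.657% did not overlap. Ccng1, cyclin G1, was 2614, 3113, 3626, 2679 and 2499 in the OHV-plus-mustard ears and 829 to 1678 in vehicle ears. It rose by 1.31 ± 0.14 (SE, limma adjusted p = 2.35e-08), and every OHV-plus-mustard ear exceeded the vehicle ear of its own animal, by 1.99-fold to 3.19-fold. Aen, an apoptosis-enhancing nuclease, was 1526, 1135, 2003, 1454 and 1025 against 456 to 735 in vehicle ears, a log2 difference of 1.22 ± 0.12 (SE, limma adjusted p = 3.66e-09). Cdkn1a, the cell cycle inhibitor p21 whose window with a p53 element is printed above, was 8605, 7469, 9909, 5543 and 5218 against 3016 to 5120 in vehicle ears. It rose by 0.90 ± 0.14 (SE, limma adjusted p = 3.84e-05). The translesion polymerase Polk rose by 1.10 and Ei24 by 0.66, both without overlap. Mdm2, the ubiquitin ligase that degrades p53, rose by 1.03 (limma adjusted p = 0.000476), although the ear of animal 33 at 472 lay within the vehicle range of 320 to 560, and its call was lost in the 5 pairs (0.93, adjusted p = 0.089). The other 8 that rose were Plk2, Trp53inp1, Sesn2, Btg2, Pmaip1, Zmat3, Phlda3 and Eda2r.

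The p53 target call varied little with the ear left out: 13 or 14 of 23 passed without any one OHV-plus-mustard ear, with medians of 0.75 to 0.96, and 10 passed in the 5 same-animal pairs alone. The mean log2 level of the list was 9.53 to 10.05 in OHV-plus-mustard ears, 9.95 to 10.30 in mustard-alone ears and 9.03 to 9.40 in vehicle ears. Other genes linked to DNA damage moved in small numbers, beside shares over all genes of 1.68% that rose and 0.657% without overlap. Of 16 DNA repair genes, Rev1, a translesion polymerase scaffold, rose by 0.70 (limma adjusted p = 4.16e-05) and Ercc1, an excision repair endonuclease subunit, by 0.74. Ercc1 lost its call without animal 29 (0.52, adjusted p = 0.289, limma) or animal 27 (0.70, adjusted p = 0.0825), and with the animal block (adjusted p = 0.201) or in the 5 pairs (adjusted p = 0.207). Of 19 DNA replication genes, Rrm2, a ribonucleotide reductase subunit, rose by 0.68 and Ccnd1, cyclin D1, by 0.76, neither overlapping vehicle. Ddias, the DNA damage-induced apoptosis suppressor, rose by 1.55 (limma adjusted p = 0.000104) on array B. Ddias did not pass with the animal block (1.28, adjusted p = 0.076, limma) or in the 5 pairs (adjusted p = 0.121).

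**Figure D2:**
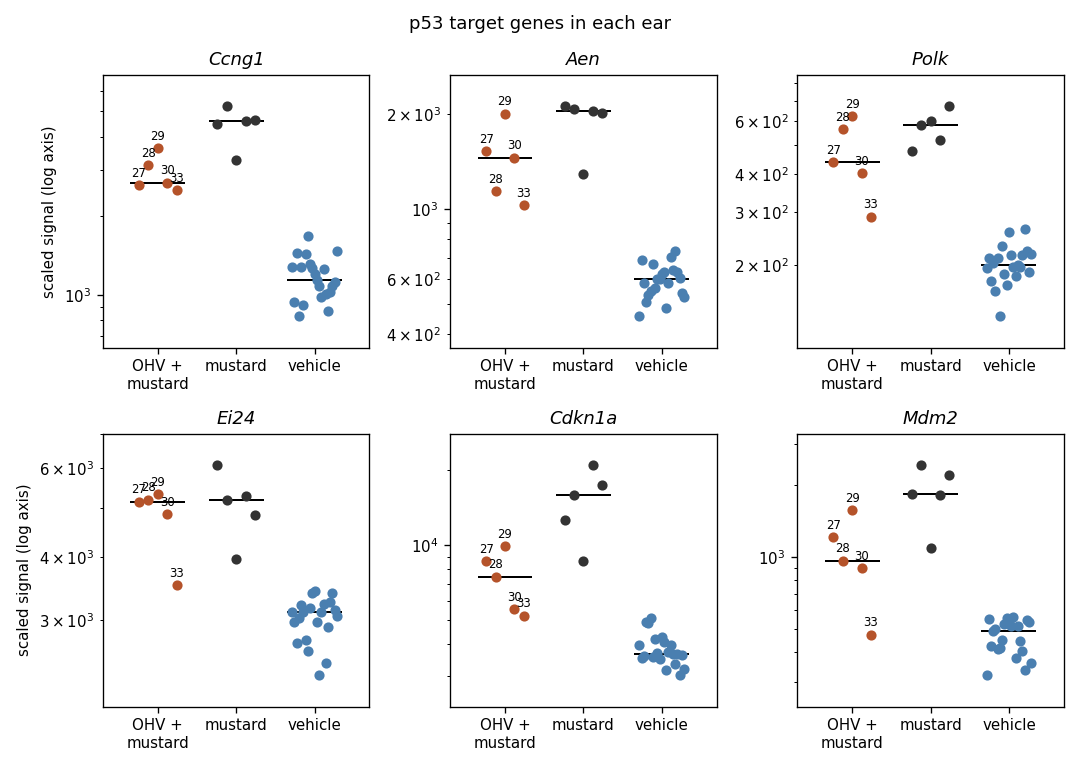
Scaled signal (log axis) of 6 p53 targets in OHV-plus-mustard ears (numbered by animal), mustard-alone ears and vehicle ears, with a line at each median. The 5 OHV-plus-mustard ears lie above all 21 vehicle ears for Ccng1, Aen, Polk, Ei24 and Cdkn1a, and for Mdm2 the ear of animal 33 (472) lies within the vehicle range.

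Among neutrophil chemokines, Cxcl1 was the 1 of 4 measured genes of the CXC list that rose, beside 1.68% of all genes. It was 240, 115, 537, 82.3 and 77.8 in OHV-plus-mustard ears, 141 to 1981 in mustard-alone ears and 5.59 to 70.3 in vehicle ears. The log2 difference from vehicle was 1.96 ± 0.49 (SE, limma adjusted p = 0.0165), and the call was lost without animal 29 (1.55, adjusted p = 0.21) or animal 27 (1.83, adjusted p = 0.079), with the animal block (1.61, adjusted p = 0.149) and in the 5 pairs (adjusted p = 0.103). Cxcl2 did not pass, at 0.55 (95% interval -0.51 to 1.61, adjusted p = 0.692, limma). Its ears were 85.8, 69.6, 353, 350 and 67.4, so animals 29 and 30 lay above the vehicle maximum of 298 and the others near the vehicle median of 86.8. The cytokine Il1b was likewise not called, at 0.36 (95% interval -0.27 to 0.99, adjusted p = 0.646, limma), with 154 to 363 in OHV-plus-mustard ears and 105 to 295 in vehicle ears. The mean log2 level of the 6 neutrophil markers on array A was 7.29 to 7.57 in OHV-plus-mustard ears, 7.44 to 9.02 in mustard-alone ears and 7.07 to 7.59 in vehicle ears. Of 7 neutrophil markers measured on either array none rose in the limma fit, 0 of them at an unadjusted p under 0.05, and Mpo, myeloperoxidase, fell by 0.55 on the log2 scale, a call lost without animal 27 (-0.49, adjusted p = 0.079, limma) or 30 (-0.45, adjusted p = 0.0932), or in the 5 pairs (-0.54, adjusted p = 0.0777). Of 16 macrophage markers 1 rose, Ms4a7, a call lost without the ear of animal 27, where it was highest (0.30, adjusted p = 0.361), of animal 29 (0.47, adjusted p = 0.219) or of animal 28 (0.56, adjusted p = 0.05). Ms4a7 had an adjusted p of 0.199 with the animal block (limma), and of 0.163 in the 5 pairs.

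Of 27 immediate early genes 2 rose, the growth factor-induced Ier5 (0.74) and the phosphatase Dusp6 (0.96), with a list median of 0.09. The share of all genes that rose, for this and the lists below, was 1.68%. Without animal 29 neither passed (0.65, adjusted p = 0.105, and 0.82, adjusted p = 0.141, limma), and Dusp6 was also lost without animal 27 (0.80, adjusted p = 0.102). Ier5 was lost with the animal block (0.60, adjusted p = 0.226, limma) and in the 5 pairs (adjusted p = 0.0999). Of 15 Nrf2 targets and regulators, the quinone reductase Nqo1 rose by 0.77 (limma adjusted p = 4.6e-05) and Nfe2l2, which encodes Nrf2, by 0.61 (adjusted p = 0.0018). Nfe2l2 lost its call with the animal block (0.50, adjusted p = 0.122, limma) and in the 5 pairs (adjusted p = 0.129). Icam1, a leukocyte adhesion receptor, rose by 1.06 (limma adjusted p = 0.000192). Of 17 eicosanoid genes, the phospholipase Pla2g4e rose by 0.79 and the leukotriene receptor Ltb4r1 by 0.75, and without animal 29 these were 0.61 (adjusted p = 0.203, limma) and 0.64 (adjusted p = 0.0805). Pla2g4e was also lost without animal 27 (adjusted p = 0.0616) or 30 (adjusted p = 0.0556). With the animal block the adjusted p was 0.24 for Pla2g4e and 0.346 for Ltb4r1 (limma), and in the 5 pairs 0.199 and 0.201. The cyclooxygenase gene Ptgs2 was below the minimum signal. No gene was called among 11 measured vanilloid and neurogenic genes, and 0 of them passed at an unadjusted p under 0.05 (limma). Trpv1, the receptor of capsaicin, was 202 to 322 in OHV-plus-mustard ears and 210 to 555 in vehicle ears, a log2 difference of -0.15 (95% interval -0.51 to 0.21).

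**Figure D3:**
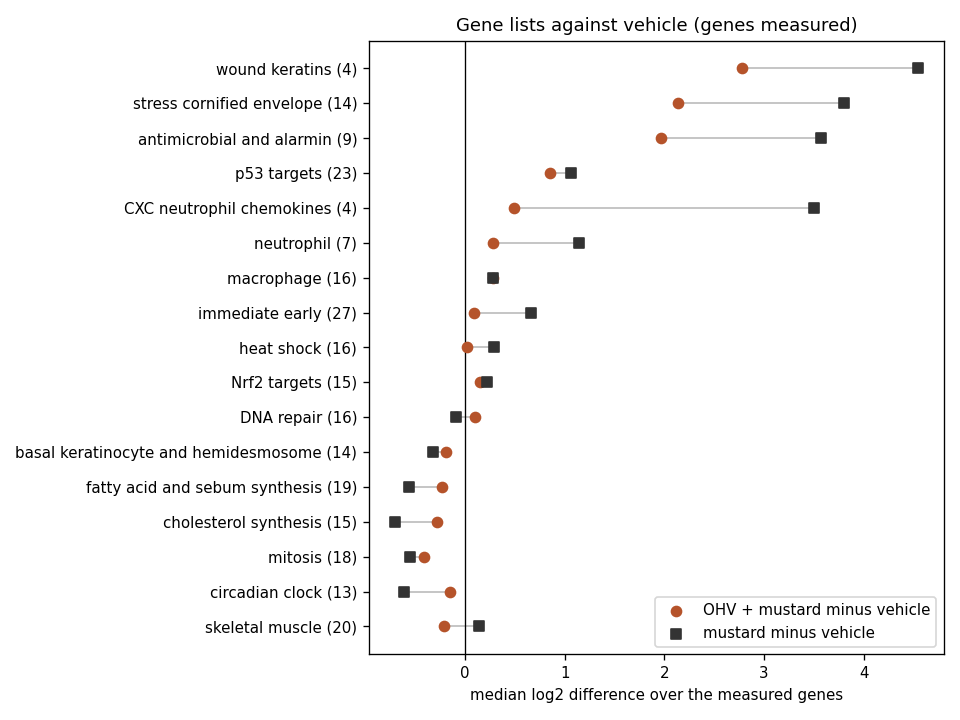
Median log2 difference from vehicle over the measured genes of 17 lists (number of genes in brackets), for OHV-plus-mustard ears (circles) and mustard-alone ears (squares), which share the vehicle ears. The wound keratins stand at 2.78 and 4.54, the p53 targets at 0.85 and 1.06, and the CXC chemokines at 0.49 and 3.50.

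The falls were smaller than the rises: 9 probe sets of array A fell at least 2-fold (0.0583%) and 68 rose at least 2-fold (0.441%). Fhit, a dinucleotide hydrolase at a fragile site, was 165, 86.8, 44, 109 and 185 in the OHV-plus-mustard ears, all below the vehicle range of 229 to 493. It fell by 1.50 ± 0.26 on the log2 scale (SE, limma adjusted p = 0.000121). Igfbp3, a binding protein of insulin-like growth factors, was 863, 573, 333, 688 and 749 against 1017 to 2264 in vehicle ears, a fall of 1.27 ± 0.20 on the log2 scale (SE, limma adjusted p = 3.87e-05). Lpp, a focal adhesion protein, fell by 1.01 without overlap, and Utrn, the dystrophin homologue utrophin, fell by 0.86 on the log2 scale. On array B, Rbms3 (an RNA-binding protein), Trappc9 (a trafficking complex subunit) and Atrnl1 fell by 1.03, 0.99 and 0.86. Trappc9 lost its call without animal 27, 28 or 29 (adjusted p = 0.0678, 0.0622 and 0.0675, limma) and Atrnl1 without animal 29 (-0.74, adjusted p = 0.0815). With the animal block Lpp was at -0.94 (adjusted p = 0.0588, limma), Rbms3 at -0.91 (adjusted p = 0.171) and Trappc9 at -0.92 (adjusted p = 0.0918). In the 5 pairs the adjusted p was 0.242 for Rbms3, 0.111 for Trappc9 and 0.0986 for Atrnl1.

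Fallen genes spanned more of the genome than the rest, a pattern described after the values had been seen and given without a test. The span was over 200 kb in 45 of the 127 that fell (35.4%), in 0 of the 248 that rose and in 5.00% of the 14729 genes with a span in RefSeq. The median span was 106 kb for fallen genes, 11.1 kb for risen genes and 22.0 kb for all. Fhit spans 1610 kb, Cdh13 1180 kb, Rbms3 1060 kb, Lpp 599 kb and Utrn 488 kb, whereas Igfbp3 spans 9.41 kb. Cdh13, a cadherin of the cell surface, fell by 0.82 on the log2 scale (limma adjusted p = 0.000876), and did not pass in the 5 pairs (-0.81, adjusted p = 0.0698). The share of genes that fell was 0.419% under 10 kb, 0.677% from 30 to 100 kb, 4.72% from 200 to 400 kb and 8.84% over 400 kb. It held at each level of signal: in the lowest, middle and highest of 3 equal classes of genes by mean signal, 38.7%, 39.5% and 30.2% of fallen genes spanned over 200 kb, against 6.73%, 4.83% and 3.44% of all.

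In single ears, the median difference of the 329 array A genes over 200 kb minus that of the 2543 under 10 kb was -0.27, -0.26, -0.39, -0.21 and -0.11 log2 units in animals 27, 28, 29, 30 and 33. It was -0.82 to -0.26 in mustard-alone ears and -0.10 to 0.12 in vehicle ears, each set against the mean of the other vehicle ears. In the 5 ears given OHV alone it was -0.06 to 0.09 against the mean of the 3 ethanol ears. The OHV-plus-mustard ears thus lay below every vehicle ear, but that of animal 33 barely, at -0.11 against -0.10 in its own vehicle ear and in that of animal 18. The vehicle ears of animals 27, 28, 29 and 30 were at -0.01, 0.03, -0.06 and -0.04. After quantile normalization 34.2% of the fallen genes spanned over 200 kb, and without rescaling 3 genes fell, 2 of them over 200 kb.

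**Figure D4:**
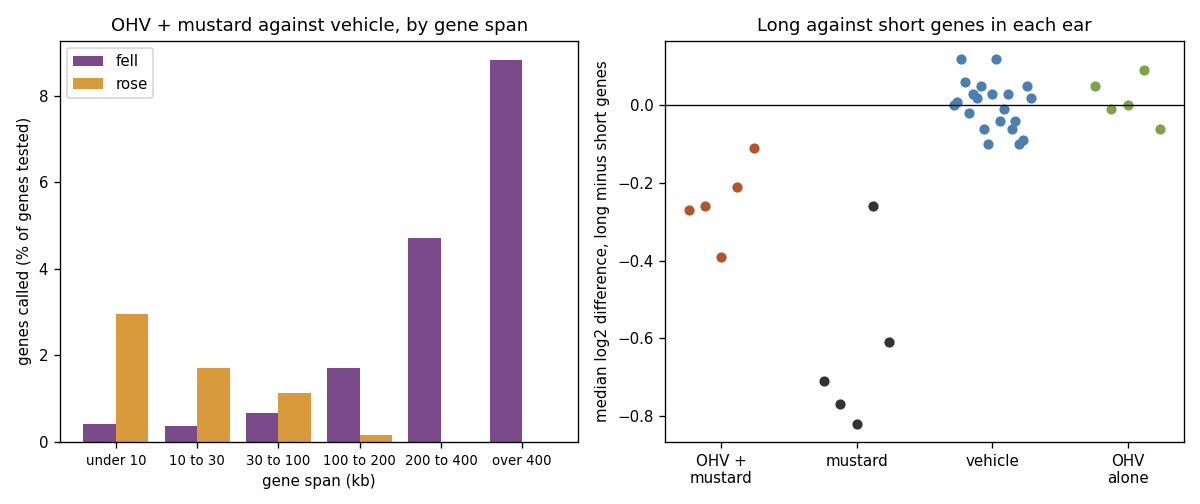
Left, percentage of tested genes that fell or rose in OHV-plus-mustard ears relative to vehicle, by gene span (8.84% fell and 0% rose over 400 kb). Right, per ear, the median log2 difference from the reference mean of genes over 200 kb minus that of genes under 10 kb: -0.39 to -0.11 in OHV-plus-mustard ears, -0.82 to -0.26 in mustard-alone ears, -0.10 to 0.12 in vehicle ears and -0.06 to 0.09 in ears given OHV alone, which were set against ethanol ears.

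In gene groups of the resting tissue, falls numbered 0 to 3 a list, against 0.86% of all genes. Of 14 basal keratinocyte and hemidesmosome genes, 3 fell: the anchoring fibril collagen Col7a1 (-0.59), the hemidesmosome collagen Col17a1 (-0.48) and the keratin Krt15 (-0.65). None of the 3 passed without animal 29 (adjusted p = 0.0594, 0.0741 and 0.269, limma), Col17a1 and Krt15 also failed without animal 27 (adjusted p = 0.102 and 0.0912), and Col7a1 and Krt15 also without animal 30 (adjusted p = 0.0842 and 0.0834). With the animal block the adjusted p was 0.328 for Col7a1, 0.162 for Col17a1 and 0.127 for Krt15 (limma), and 0 of the 14 passed in the 5 pairs. Of 18 mitosis genes 2 fell, the kinase Plk1 (-0.56) and the centromeric histone Cenpa (-0.76), while all 18 had negative differences with a median of -0.41. Plk1 failed without animal 27 (adjusted p = 0.0565, limma) and Cenpa without animal 27, 28 or 29 (adjusted p = 0.11, 0.0536 and 0.151). Without animal 27 none of the 18 passed, without animal 28 or 29 1 did, and without animal 33 6 fell, with a median of -0.50. With the animal block the adjusted p was 0.282 for Plk1 and 0.202 for Cenpa (limma), and 0 of the 18 passed in the 5 pairs. The CCAAT box was found in 13 of 15 mitosis genes with a window (86.7%, against 41.1% of all genes with a window) and the cell cycle homology region TTTGAA in 12 of 15 (80.0%, against 20.2%). Of 19 fatty acid and sebum genes 2 fell, the elongase Elovl6 (-0.83, limma adjusted p = 0.0016) and the lipid droplet protein Cidea (-0.42), Cidea not without animal 27 (-0.33, adjusted p = 0.0872). Elovl6 was at -0.67 with the animal block (adjusted p = 0.237, limma) and Cidea at -0.28 (adjusted p = 0.366). In the 5 pairs Cidea did not pass either (adjusted p = 0.183, limma). Of the 19, 1 fell in the 5 pairs and 3 without animal 28 or without animal 33. Of 15 cholesterol synthesis genes 1 fell, Msmo1 (-0.57), a call lost without animal 27, 28, 29 or 30 (adjusted p = 0.0872, 0.0723, 0.21 and 0.121) or with the animal block (adjusted p = 0.092). Without animal 33, 2 of the 15 fell. None of 13 clock genes, 20 skeletal muscle genes, 10 cartilage genes or 10 endothelial genes was called by limma, with medians of -0.15, -0.21, -0.27 and 0.00. At an unadjusted p under 0.05, 6 of the basal keratinocyte genes, 11 of the mitosis genes, 9 of the fatty acid genes and 8 of the cholesterol genes passed, all of them lower. At the same level, 2 of the clock genes, 2 of the muscle genes, 0 of the cartilage genes and 0 of the endothelial genes passed. Over all probe sets, 2347 of 15435 on array A and 1469 of 17294 on array B passed at that level (limma). The cytokine Il33, stored in keratinocyte nuclei, fell by 0.65 on the log2 scale (limma adjusted p = 0.000556), with 432 to 687 in OHV-plus-mustard ears and 654 to 1179 in vehicle ears.

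Set directly against mustard alone, OHV-plus-mustard ears differed in 2801 of 15435 probe sets on array A (18.1%) and 1680 of 17294 on array B (9.71%) in the fit over all 43 ears. These calls rest on the spread of all groups. When the 5 OHV-plus-mustard and 5 mustard-alone ears were fitted by themselves with limma, 0 probe sets passed on array A (3752 at an unadjusted p under 0.05) and 1 on array B (3265). With a covariate for the Gapdh 3′ to 5′ signal ratio, a sign of RNA quality, 57 and 35 passed. That log2 ratio was -0.32 to 0.01 in OHV-plus-mustard ears, -0.05 to 0.78 in mustard-alone ears and -0.25 to 0.24 in vehicle ears on array A. Without the mustard-alone ears of animals 5 and 37, where the ratio was 0.63 and 0.78, 82 and 109 passed. In 1 mustard-alone ear, that of animal 36, the wound keratins were at 12.17, against 13.87 to 14.22 in the other 4. Without that ear the counts were 4191 and 2677. The values below are given with the adjusted p of the fit over all 43 ears, and per ear only for some genes. None of the 15539 probe sets tested on array A passed in the fit over the 10 ears alone.

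Of the 4 CXC neutrophil chemokines measured, 3 were lower in OHV-plus-mustard than in mustard-alone ears, as were 4 of 7 neutrophil markers, none higher. The interleukin 1 family had 1 of 10 lower and 2 higher, macrophage markers 3 of 16 lower and 2 higher, and CC chemokines 1 of 6 lower. Over all probe sets, 1079 of 15435 were lower and 1722 higher on array A. On array B, 545 of 17294 were lower and 1135 higher. Cxcl2 was 67.4 to 353 in OHV-plus-mustard ears, and 877, 1634, 3138, 122 and 5599 in the mustard-alone ears of animals 1, 3, 5, 36 and 37. The log2 difference was -3.03 (95% interval -4.38 to -1.68, limma adjusted p = 0.00228), and the ear of animal 36 lay within the OHV-plus-mustard range. Il1b differed by -2.02 (interval -2.81 to -1.22, adjusted p = 0.00114, limma) and Krt17 by -1.73 (interval -2.24 to -1.23, adjusted p = 0.000148). The chemokine Cxcl3 differed by -3.35 (adjusted p = 0.00128, limma) on array B, and the matrix protease Mmp10 by -2.77 (adjusted p = 0.00128). Of the p53 targets, Cdkn1a differed by -1.02 (interval -1.38 to -0.65, adjusted p = 0.000603, limma). Ei24 differed by -0.08 (interval -0.30 to 0.14) and Polk by -0.32 (interval -0.66 to 0.01). In the mustard-alone ear of animal 36, Il1b was 243, Krt17 2489 and Cdkn1a 8611, each within the OHV-plus-mustard range. Over lists, the median difference from mustard alone was -1.70 for wound keratins, -2.82 for CXC chemokines and -0.43 for p53 targets, against 0.00 over all genes.

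Other genes lay higher in OHV-plus-mustard than in mustard-alone ears and were not called against vehicle in the fit over all 43 ears. Slc6a4, the serotonin transporter, was 249, 409, 171, 294 and 332 in OHV-plus-mustard ears, 31.1, 21.7, 10.4, 312 and 33.6 in mustard-alone ears, and 255 to 542 in vehicle ears. It was 2.31 log2 units above mustard alone (interval 1.51 to 3.11, limma adjusted p = 0.000493) and -0.45 from vehicle (interval -1.08 to 0.19). Mt4, the metallothionein of stratified epithelium, was 4220 to 6816 in OHV-plus-mustard ears, 1393, 395, 602, 4861 and 735 in mustard-alone ears and 3286 to 9839 in vehicle ears. It was below the vehicle ear of its own animal in 5 of 5 animals, at 0.648-fold to 0.813-fold, and in the 5 pairs it was called (-0.51, adjusted p = 0.017, limma). The transcription factor Mycl was 316 to 702 in OHV-plus-mustard ears, 127, 24.8, 37.1, 441 and 17.2 in mustard-alone ears and 311 to 779 in vehicle ears. For all 3 genes the mustard-alone ear of animal 36 lay in the range of the OHV-plus-mustard ears.

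**Figure D5:**
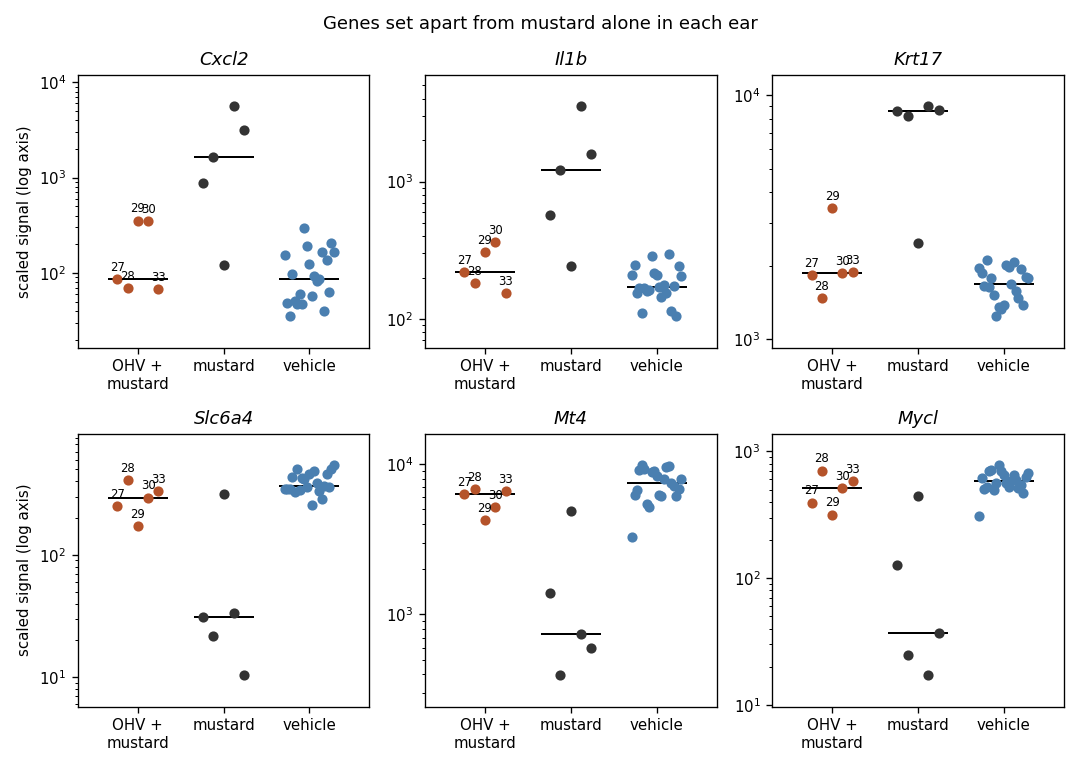
Scaled signal (log axis) of 6 genes not called against vehicle, in OHV-plus-mustard ears (numbered by animal), mustard-alone ears and vehicle ears, with a line at each median. The OHV-plus-mustard ears of Cxcl2 (67.4 to 353), Il1b (154 to 363) and Mt4 (4220 to 6816) lie mostly within the vehicle range, and 1 mustard-alone ear, that of animal 36, stands apart from the other 4.

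Pik3r3 lay above both mustard alone and vehicle, and the range of Notch1 reached above both but overlapped them. Pik3r3, a regulatory subunit of phosphoinositide 3-kinase, was 1537, 1755, 2028, 2166 and 1653 in OHV-plus-mustard ears, 465 to 1510 in mustard-alone ears and 651 to 1528 in vehicle ears. It rose by 0.72 relative to vehicle (limma adjusted p = 0.022) and was 0.88 above mustard alone (adjusted p = 0.00523). The call against vehicle was lost without animal 28, 29 or 30 (adjusted p = 0.0541, 0.154 and 0.113), with the animal block (0.55, adjusted p = 0.536) and in the 5 pairs (adjusted p = 0.167). Notch1, a receptor of keratinocyte fate, was 1746 to 2813 in OHV-plus-mustard ears, 753 to 2578 in mustard-alone ears and 939 to 1791 in vehicle ears, a rise of 0.53 (limma adjusted p = 0.0453) that was lost without animal 27, 28, 29 or 30 (adjusted p = 0.0773, 0.182, 0.116 and 0.136). Its adjusted p was 0.326 with the animal block (limma), and 0.103 in the 5 pairs.

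OHV without mustard was set against ethanol on array A to see whether the drug alone moved the same genes. The fit also held ears labelled naive and ears given dimercaprol or indomethacin alone. By limma, 0 of 16570 probe sets passed (0%), and 1042 had an unadjusted p under 0.05 (6.29%). In OHV-alone ears relative to ethanol ears the log2 difference was -0.22 ± 0.74 for Krt6b, -0.69 ± 0.71 for Krt16, -0.20 ± 0.57 for S100a8 and -0.18 ± 0.25 for Ccng1 (SE, n = 5 and n = 3, limma adjusted p = 0.976, 0.918, 0.975 and 0.943). These ears were not measured on array B, and the errors leave room for sizeable differences in Krt6b and Krt16.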

How the data were processed

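RNA of ear biopsies was hybridized to 2 Affymetrix arrays (A and B). The deposited values are linear probe set intensity, made with MAS5 per the submitters' processing notes, and no scaling target or background setting is given in the sources used here. The deposited array totals differ, with trimmed means of 66.9 to 268 on array A and 18.8 to 52.0 on array B, so dim genes are measured less precisely on array B. The number of arrays limits the precision.

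Signals were multiplied by 1 factor per array, which brought its trimmed mean to 500 (2% trimmed from each end). Probe sets were kept where the mean of the scaled signal reached 100 over the 43 ears of the mustard experiment, equal to about 33.2 deposited units on array A and 7.63 on array B at the median array. Genes under 100 in every vehicle ear, such as Defb3 and Cxcl1, were thus kept only through the ears where they were high. Values became log2(signal + 16) and were fitted with limma 3.58.1 in R 4.3.3, with 5 group means per array, trended empirical Bayes and Benjamini-Hochberg adjustment over all kept probe sets. The 5 groups were vehicle, mustard alone, and mustard after OHV, dimercaprol or indomethacin. Arrays were tested apart. The fit was tested on simulated data. Probe sets were named from the platform annotation: 20393 of array A had 1 gene, 691 several and 1606 none, and 14674, 245 and 7656 of array B. A gene is represented by its brightest single-gene probe set, array A first.

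Same-numbered ears are the 2 ears of 1 animal by the labels. Their deviations from the group means correlated at -0.0128 to 0.416 on array A and 0.00885 to 0.127 on array B. Nothing in the labels gives a scan or hybridization batch, and p-values measure the spread between animals.

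Named genes are the 12 largest rises and falls called on array A and the 6 largest of each from array B with all 5 ears on one side of the vehicle mean, up to 4 members per list by adjusted p, a fixed panel, and called genes that also differed most from mustard alone. The 8 p53 targets named without values and the spans lie outside that rule. The gene lists, members and rule were chosen with earlier results of these data known. Promoter windows and gene spans come from RefSeq, GRCm38.p6. The p53 element was added to the motif search after the data were seen. Alternatives covered scaling, pseudocount, filter, trend, groups fitted, animal as block, RNA quality, brightness and muscle covariates, and leaving out each ear.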

Additional observations from a re-analysis of the deposited data

Results flagged for a closer look

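Of 98 genes followed through the alternatives, 5 had 1 OHV-plus-mustard ear far from the other 4. By chance about 1 in 20 groups shows such a gap. Krt17 was 3451 in the ear of animal 29, against 1473 to 1881 in the other 4. Ei24 was 3526 in the ear of animal 33, against 4868 to 5332. Plk1 was 178 in the ear of animal 29, against 122 to 125. Lhx2, a hair follicle transcription factor, was 187 in the ear of animal 33, against 133 to 147. Chdh, choline dehydrogenase, was 355 in the ear of animal 29, against 580 to 706. Lhx2 and Chdh were called as falls against vehicle. Both calls were lost with the animal block (adjusted p = 0.27 and 0.164, limma) and in the 5 pairs (adjusted p = 0.165 and 0.0931).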

How the results depend on the processing

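Of 84 called genes followed through up to 41 alternatives, 27 kept their call in every one of them, 57 lost it in at least 1, and none changed sign. The 27 include Defb3, Krt6b, Krt16, S100a8, Mcam, Aen, Ccng1, Cdkn1a, Igfbp3 and Fhit. Against vehicle, the count of 442 on array A and 93 on array B moved to 130 and 38 without rescaling, 683 and 189 with only the 2 groups fitted, 168 and 34 with animal as a fixed replicate block, 129 and 13 in the 5 pairs with a replicate block, and 142 and 16 with the same 10 ears unpaired. The random replicate block gave 527 and 98. Among the followed genes named in the report, the fixed replicate block and the 5 pairs changed no call other than those stated there. Leaving out 1 ear gave 159 to 624 on array A and 37 to 144 on array B. Against mustard alone, 2801 and 1680 became 10840 and 4571 without rescaling (where the median of all probe sets shifted by 0.72 and 0.48), with 10805 and 4543 of them higher. They became 0 and 1 with only the 2 groups fitted, 0 and 1 with the fixed replicate block (2510 and 2026 at an unadjusted p under 0.05, limma), 57 and 35 with the Gapdh covariate, 16 and 33 with the brightness covariate, and 82 and 109 without the mustard-alone ears of animals 5 and 37, an alternative chosen after seeing the data. Leaving out 1 ear gave 1504 to 4191 and 684 to 2677, lowest without the mustard-alone ear of animal 37. The cause of these movements was not tested. The smaller fits also held fewer ears. The remaining alternatives moved each count by less than 1.5 times. Krt17, Cxcl2, Il1b, Mmp10, Cxcl3, Slc6a4, Mycl and Trpv1 were called against vehicle under none of the alternatives, and Mt4 under 1, the 5 pairs with a replicate block. OHV alone against ethanol gave 0 calls by limma under every alternative run, 0 to 0 with 1 ear left out. Averaging all probe sets of a gene moved the falls to 5 of 18 for mitosis genes, 4 of 19 for fatty acid genes and 2 of 15 for cholesterol genes.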
